A study of Mus musculus with 3 samples.

Results

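Open chromatin of mouse embryonic stem cells (mESCs) was examined in 3 large clusters of olfactory receptor (Olfr) genes. They were taken as the stretches 85.0 to 90.2 Mb of chromosome 2, 109.5 to 115.5 Mb of chromosome 7 and 37.5 to 40.2 Mb of chromosome 9, in the mouse build mm9. The members were selected by position, as the listed intervals whose midpoint lies inside these bounds, and no score was used. They numbered 784 of the 348759 intervals of the list, or 0.225%, on 13.9 Mb. That length is 0.576% of the span of the 19 autosomes. Chromosome 2 contributed 119 members, chromosome 7 contributed 518 and chromosome 9 contributed 147.

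Olfactory receptors are G protein-coupled receptors that detect odorants in the sensory neurons of the nose. Their genes arose by repeated local duplication and lie in tandem arrays, mixed with many pseudogenes. A mature sensory neuron expresses a single receptor allele, and the arrays are kept in repressed chromatin in most other cells.

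The series holds 3 samples of wild type mESCs of the strain background 129Sv-C57Bl/6, grown without feeder cells. They are an input library of genomic DNA, a FAIRE-seq sample of cells given DMSO, the solvent control, and a FAIRE-seq sample of cells given 500 nM ICRF-193, a catalytic inhibitor of topoisomerase II, each treated for 16 h. Replicates 1 and 2 of a treatment share 1 title and 1 sample, so each group is a single sample. FAIRE (formaldehyde-assisted isolation of regulatory elements) enriches DNA that is weakly crosslinked to protein, which includes promoters and enhancers in use. The only processed table analysed is 1 list of potential peaks made with F-Seq, and it ties no interval to a sample. No effect of ICRF-193 on the clusters could therefore be measured, replicate error and read depth are unknown, and no p-value is given. Interval bounds below (95%) cover counting error only. They are too narrow for the regions, because neighbouring intervals are not independent.

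The Olfr genes of chromosomes 2, 7 and 9 differ from other genes of these chromosomes in the sequence of their annotated promoter windows. A typical pair is shown to make this visible. Both sequences are RefSeq promoter windows of the build GRCm38.p6, from 250 bases before to 50 bases after the annotated start, 5′ to 3′ on the gene's strand, with every CG dinucleotide in capitals. The window of Olfr1000 (chr2:85608859-85609158, minus strand) represents the Olfr genes of chromosomes 2, 7 and 9. The window of 1600014C10Rik (chr7:38182967-38183266, plus strand) represents the other genes of these chromosomes. Each has the median CG count of its group and comes first in alphabetical order. These positions belong to GRCm38.p6 and cannot be set beside the mm9 positions of the list.
Olfr1000: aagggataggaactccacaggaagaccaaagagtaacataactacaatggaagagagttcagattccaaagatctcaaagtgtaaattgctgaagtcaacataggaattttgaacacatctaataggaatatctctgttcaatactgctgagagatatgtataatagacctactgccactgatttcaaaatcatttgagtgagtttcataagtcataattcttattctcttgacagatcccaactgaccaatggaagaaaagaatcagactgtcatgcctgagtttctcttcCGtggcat
1600014C10Rik: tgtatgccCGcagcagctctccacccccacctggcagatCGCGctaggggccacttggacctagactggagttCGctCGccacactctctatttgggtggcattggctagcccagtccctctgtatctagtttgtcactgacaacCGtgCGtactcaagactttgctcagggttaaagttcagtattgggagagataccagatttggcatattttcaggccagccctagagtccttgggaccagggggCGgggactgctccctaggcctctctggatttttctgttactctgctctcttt

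The annotated promoter windows of Olfr genes were poor in CG. The window of Olfr1000 holds 1 CG and 37.0% G or C, and that of 1600014C10Rik holds 8 CG and 54.3%. The RefSeq tables gave a window for 561 Olfr genes of chromosomes 2, 7 and 9, where 656 are listed as coding or long non-coding. The median was 1 CG per window (quartiles 0 and 2). The median over 3748 of 4357 other coding genes of these chromosomes was 14 (quartiles 4 and 24). With non-coding genes included it was 8 over 5644 genes (quartiles 3 and 21), and over all 27025 genes of the table it was 7. No Olfr window reached 10 CG and the highest held 8, whereas 60.5% of the other coding genes and 47.4% of all other genes reached 10. A window without any CG was found for 35.1% of the Olfr genes and 4.68% of all other genes, coding or not, which are the others meant below. The motif TATAAA was searched on both strands. It was present in 46.0% of the Olfr windows, 12.3% of the others and 14.2% of all genes of the table, with 1 window per gene. The motif TAATTG, a homeodomain-type sequence, was present in 25.3%, 6.61% and 8.15%. Neither motif contains the other, both consist mostly of A and T, and the median GC content was 34.3% in the Olfr windows against 54.0% in the others. A match of letters is not a bound site. In the Olfr1000 window the bases after the annotated start begin with ATG, the start codon. Its annotated start may thus be that of the coding sequence, with the promoter outside the window. How many Olfr windows share this was not checked.

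**Figure D1:**
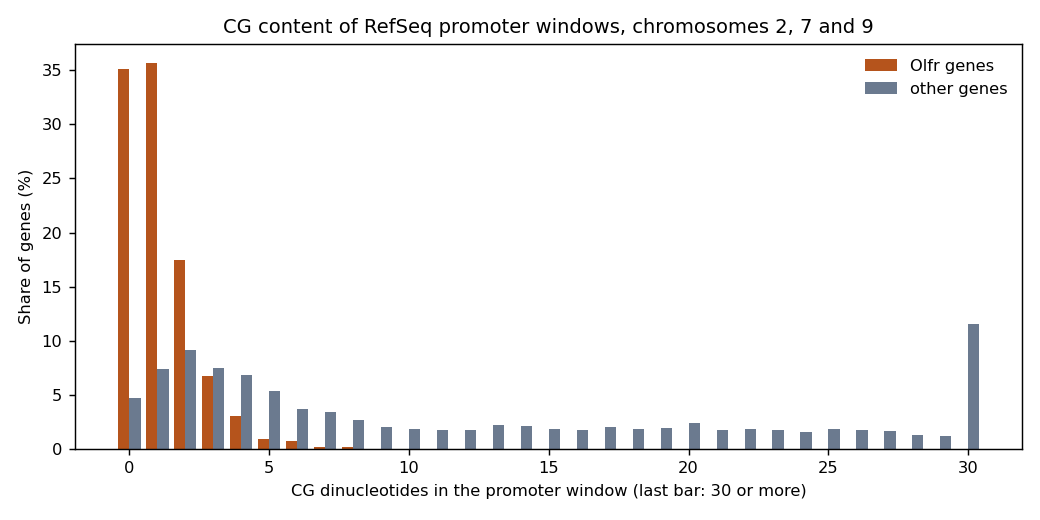
Share of genes (%) by the number of CG dinucleotides in the RefSeq promoter window, for Olfr genes (561, orange) and other genes (5644, grey) of chromosomes 2, 7 and 9, with windows of 30 or more CG in the last bar. The Olfr genes pile up at 0 to 2 CG, and none holds more than 8.

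The same gene table shows how strongly the arrays are made of receptor genes. It lists 1428 Olfr entries, of which 377 lie on chromosome 2, 294 on chromosome 7 and 179 on chromosome 9. Runs of Olfr genes were split where neighbours stood over 1 Mb apart. The largest run of chromosome 2, from Olfr987 to Olfr1274, holds 293 Olfr entries, 222 coding and 71 pseudogenes. Between them lie 3 other coding genes, which are Fads2b, Pramel7 and Pramel6. The largest run of chromosome 9, from Olfr160 to Olfr986, holds 127 Olfr entries and also 3 other coding genes, Vwa5a, AW551984 and Tmem225.

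Chromosome 7 is built differently. Its largest run, from Olfr543 to Olfr692, holds 158 Olfr entries with 27 other coding genes between them. These include 5 beta-globin genes (Hbb-bt, Hbb-bs, Hbb-bh2, Hbb-bh1 and Hbb-y), which supply the beta chains of hemoglobin in red cells, 12 genes of the Trim family of RING-type ubiquitin ligases and 5 Usp17l deubiquitinase genes. The next run, from Olfr693 to Olfr519, holds 80 Olfr entries and 7 other coding genes, among them the synaptotagmin gene Syt9. It was added after the values of the clusters were seen. Another 21 coding genes lie between both runs, among them the integrin-linked kinase gene Ilk, the general transcription factor subunit gene Taf10 and the lysosomal enzyme genes Smpd1 and Tpp1. No coding vomeronasal receptor gene (Vmn) or coding gene named Zfp lies inside these runs, and pseudogenes of these families were not counted. Which of these genes fall inside the mm9 bounds was not determined, so the label of the clusters was not checked against an mm9 annotation, and no interval below is assigned to a gene.

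Low CG content of the annotated windows was shared by the receptor genes and by most genes standing among them on chromosome 7. Over the 3 largest runs, 374 of 443 coding Olfr genes had a promoter window, with a median of 1 CG, and 0 reached 10 CG. The median was 1 on each of the 3 chromosomes. The 27 other coding genes inside the largest run of chromosome 7, mostly globin, Trim and Usp17l genes, gave 23 windows with a median of 1 CG, of which 1 reached 10 CG. For the 20 nearest other coding genes on each side of the runs, and for the 21 genes between both runs of chromosome 7, the same check is void, because under 80% of them had a window (89 of 120 and 14 of 21).

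The Olfr clusters held fewer listed intervals than the sequence around them, and the cluster of chromosome 2 was by far the sparsest. Chromosome 2 had 22.9 intervals per Mb (18.96 to 27.4) inside its cluster, against 130 per Mb in the 3 Mb to the left and 244 per Mb in the 3 Mb to the right. Chromosome 7 had 86.3 per Mb (79.1 to 94.1), against 271 and 206 per Mb. On chromosome 9 the density was 54.4 per Mb (46.0 to 64.0), against 135 and 174 per Mb. All 3 clusters therefore lay below both of their flanks.

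Relative to both flanks together, the density was 0.122 times as high on chromosome 2 (0.1003 to 0.148), 0.362 times on chromosome 7 (0.327 to 0.401) and 0.352 times on chromosome 9 (0.294 to 0.419). For the 3 clusters together it was 0.292 (0.269 to 0.315), with 784 intervals in the clusters and 3483 on 18.0 Mb of flanks. The share of bases covered by intervals gave a like picture. Intervals covered 0.218% of the chromosome 2 cluster, 0.939% of the chromosome 7 cluster and 0.666% of the chromosome 9 cluster, against 1.95%, 2.60% and 1.68% of their flanks. The ratio for the 3 clusters together was 0.297.

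**Figure D2:**
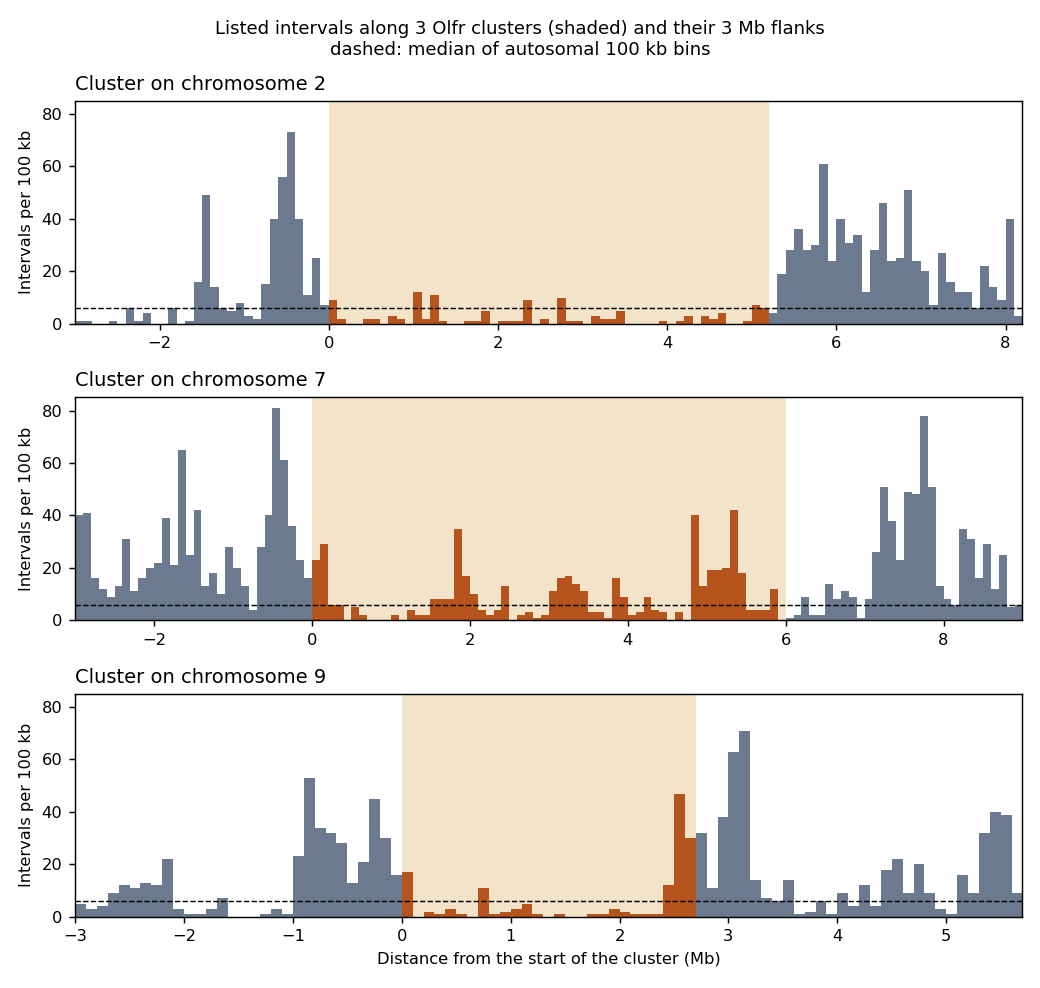
Number of listed intervals in each 100 kb bin along the 3 clusters (shaded, orange bars) and the 3 Mb on either side (grey bars), against the distance from the cluster start in Mb, with the median autosomal bin of 6 intervals dashed. No bin of the chromosome 2 cluster exceeds 12 intervals, the chromosome 7 cluster contains several blocks of up to 42, and the chromosome 9 cluster is sparse up to a dense right end of up to 47.

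The 6 flanks together were denser than the autosomes, at 194 against 143 intervals per Mb. The left flanks of chromosomes 2 and 9 lay below the autosomal density, at 130 and 135 per Mb, and the other flanks lay above it. Relative to the median autosomal 1 Mb window of 92 intervals, the 6 flanks together stood at 2.10 times. Single flanks ranged from 1.42 to 2.95 times that median. Set against the median window, the chromosome 2 cluster had 0.249 times as many intervals (0.206 to 0.298) and the chromosome 9 cluster 0.592 times (0.5 to 0.696). The chromosome 7 cluster was at 0.938 times, and its bounds (0.859 to 1.02) include the median window. After intervals within 500 bp were joined it was at 0.874 times, with bounds (0.771 to 0.988) below the median window. Among intervals at or above the median score it was at 0.986 times (0.873 to 1.11), with bounds that include it. All 3 clusters lay below the autosomal density of 143 per Mb, the chromosome 7 cluster at 86.3 per Mb.

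In all, 12 windows of 1 Mb lay wholly inside the clusters. On chromosome 2 the 5 windows from 85 to 90 Mb held 20, 33, 26, 13 and 14 intervals in order of position. All 5 counts were below the lower quartile of autosomal windows, 35 intervals. On chromosome 7 the 5 windows from 110 to 115 Mb held 17, 109, 77, 53 and 174 intervals. These spread from the sparse end of the distribution, at 17, to a window denser than 69.3% of autosomal windows, at 174. On chromosome 9 the windows from 38 to 40 Mb held 25 and 22 intervals.

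Counts under the autosomal median were found in 10 of the 12 windows, as were 49.7% of all 2425 autosomal windows. At or under the 10th percentile, which is 15 intervals, were 2 of the 12, both on chromosome 2 between 88 and 90 Mb, against 10.4% of all autosomal windows. Most cluster windows were thus sparse without being extreme, since many autosomal windows hold as few intervals. Of the 13 windows wholly inside the flanks, 3 were under the median and 10 at or above it, with a median of 175.

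**Figure D3:**
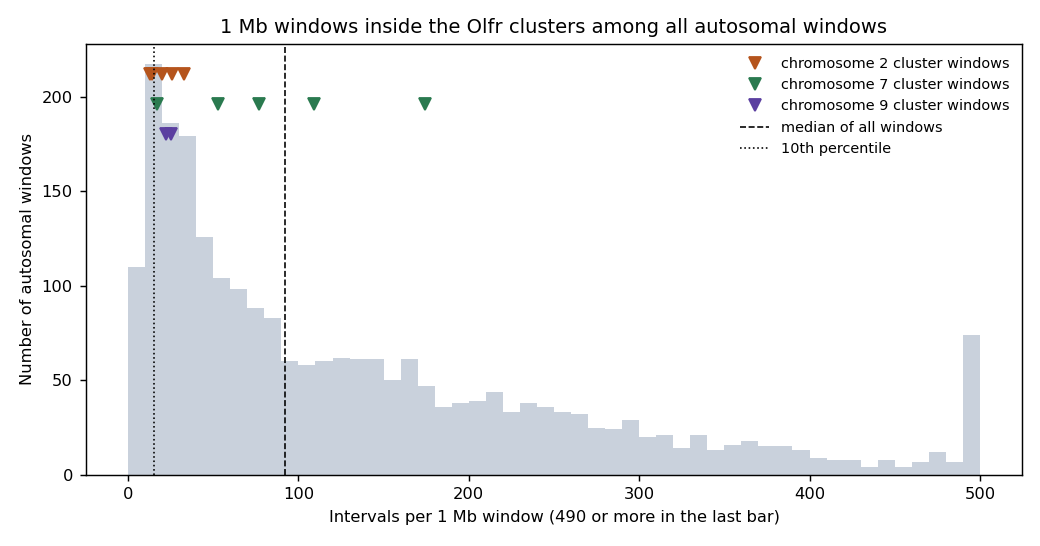
Histogram of the number of intervals in 2425 autosomal 1 Mb windows (grey), with triangles at the counts of the 12 windows wholly inside the clusters, coloured by chromosome, and lines at the 10th percentile (15) and the median (92). The chromosome 2 and chromosome 9 windows sit between 13 and 33 intervals, and the chromosome 7 windows spread from 17 to 174.

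The clusters were also set against autosomal stretches of their own length. Of 22900 autosomal stretches of 5.2 Mb, taken in steps of 100 kb and not touching the clusters, 3.66% held no more than the 119 intervals of the chromosome 2 cluster. The median stretch of that length held 621. For the chromosome 7 cluster, 32.9% of stretches of 6.0 Mb held no more than its 518 intervals, and the median stretch held 723. For the chromosome 9 cluster, 25.2% of stretches of 2.7 Mb held no more than its 147, and the median stretch held 307. These stretches overlap one another, so the percentages are a description. By this measure the cluster of chromosome 2 stands near the sparse end of the autosomes, while those of chromosomes 7 and 9 lie well inside their range.

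The chromosome 2 cluster was sparse over its whole length. In blocks of 0.5 Mb from 85.0 Mb on it held 13, 7, 26, 7, 12, 14, 12, 1, 7 and 7 intervals, and its last 0.2 Mb held 13. None of the 11 blocks reached the density of the median window. The block with a single interval, from 88.5 to 89.0 Mb, had 0.0058% of its bases covered. The longest stretch without an interval inside the 3 clusters overlaps it, at chr2:88456211-88979622 (523 kb). The next on chromosome 2 were chr2:86305203-86654372 (349 kb) and chr2:89696129-89998334 (302 kb).

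Density on chromosome 7 varied widely from block to block. From 109.5 Mb on, blocks of 0.5 Mb held 64, 7, 10, 76, 33, 8, 69, 32, 21, 56, 118 and 24 intervals. Of these 12 blocks, 5 reached the density of the median window. They held 383 of the 518 intervals, or 73.9%, at 153 per Mb, whereas the other 7 had 38.6 per Mb. The block from 114.5 to 115.0 Mb was the fullest, with 118 intervals covering 2.47% of its bases, more than the 1.64% covered over the autosomes. The longest empty stretches were chr7:110116096-110530348 (414 kb), chr7:109844301-110032278 (188 kb) and chr7:111992432-112171232 (179 kb).

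The density of the chromosome 9 cluster depended on its right end. Blocks of 0.5 Mb from 37.5 Mb on held 23, 15, 10, 5 and 17 intervals, while the last 0.2 Mb, from 40.0 to 40.2 Mb, held 77. This piece had 52.4% of the members of the cluster at 385 per Mb, and the other 2.5 Mb had 28.0 per Mb. Without it the chromosome 9 cluster was at 0.181 times its flanks (0.140 to 0.231) and 0.304 times the median window. The piece was singled out after its values were seen. The 3 longest empty stretches were chr9:38960245-39203659 (243 kb), chr9:38010324-38215182 (205 kb) and chr9:38761913-38960101 (198 kb).

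Empty sequence made up much of the clusters of chromosomes 2 and 9, while that of chromosome 7 showed no excess over the autosomes. Stretches of at least 100 kb without an interval added up to 68.0% of the chromosome 2 cluster, 57.6% of the chromosome 9 cluster and 28.7% of the chromosome 7 cluster. Over the 3 clusters they made up 49.0%, against 12.1% of the flanks and 31.8% of the autosomes. Of 139 bins of 100 kb inside the clusters, 32 held no interval (23.0%, 16.3 to 30.9), against 15.4% of all autosomal bins and 9 of 180 bins of the flanks (5.0%). By cluster, the empty bins were 18 of 52 on chromosome 2 (34.6%), 9 of 60 on chromosome 7 (15.0%) and 5 of 27 on chromosome 9 (18.5%). The share on chromosome 7 was thus close to that of all autosomal bins. Bins with at least the 6 intervals of the median autosomal bin numbered 7 of 52, 27 of 60 and 5 of 27 in the same order, against 51.5% of all autosomal bins.

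The concentration of intervals in the fullest bins differed between the clusters. The fullest 10% of the bins held 36.5% of the intervals on chromosome 7, 48.7% on chromosome 2 and 64.0% on chromosome 9, against 27.0%, 29.9% and 33.5% in their flanks. Bins were rounded up to whole numbers, to 6 of 60 on chromosome 7, 6 of 52 on chromosome 2 and 3 of 27 on chromosome 9. The flanks had 6 of 60 each. The shares were not matched for the number of intervals, which was lower in the clusters. For the 3 clusters together the fullest 14 of 139 bins held 47.6% of the members, and the fullest 18 of the 180 flank bins held 30.2% of the flank intervals. The fullest bins of chromosome 7 were chr7:114800001-114900000 with 42 intervals, chr7:114300001-114400000 with 40 and chr7:111300001-111400000 with 35. The first of these held more intervals than 91.0% of autosomal bins. Chromosome 9 had its fullest bins at chr9:40000001-40100000 with 47, chr9:40100001-40200000 with 30 and chr9:37500001-37600000 with 17. Those of chromosome 2 held only 12 (chr2:86000001-86100000), 11 (chr2:86200001-86300000) and 10 (chr2:87700001-87800000), and 64.8% of autosomal bins held fewer than 12.

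At 5 of the 6 cluster edges the 1 Mb outside was denser than the 1 Mb inside. Within 1 Mb of the left edge of chromosome 2 there were 272 intervals outside and 20 inside, and at its right edge 301 outside and 26 inside. The left edge of chromosome 9 had 295 outside and 38 inside, and that of chromosome 7 had 322 and 71. At the right edge of chromosome 9 the counts were 257 and 99, where 86 of the 99 lay in the outermost 250 kb of the cluster. The right edge of chromosome 7 ran the other way, with 59 intervals in the 1 Mb outside and 142 inside. The bounds are round positions, so an edge may lie some way from the outermost gene.

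The nearest intervals on either side of the bounds varied in score. Just inside, they lay 1.22 to 110 kb from the bound with scores of 0.0129 to 0.0191. Just outside, they lay 0.102 to 46.7 kb away with scores of 0.0129 to 0.0302. The closest outside, chr9:40199925-40200280, has its midpoint 0.102 kb beyond the bound of chromosome 9.

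Although fewer, the intervals inside the clusters resembled those elsewhere in width and in the median and 90th percentile of the score. Scores are the authors' deposited values on a scale that is not given, so they are also expressed as multiples of the lowest score of the list, 0.0129. The median score was 0.0138 in the clusters, 0.0136 in the flanks and 0.0137 over the autosomes. These medians are 1.07, 1.06 and 1.06 times the lowest score, so close to the floor that they could hardly differ. The 90th percentiles of the score were 0.0234, 0.0238 and 0.0236. The median width was 50 bp in the clusters (quartiles 8 and 165 bp), 38 bp in the flanks (7 and 157 bp) and 41 bp over the autosomes (7 and 162 bp). Intervals of at least 200 bp made up 19.8%, 19.3% and 20% in the same order. Those of at most 10 bp made up 29.0%, 31.5% and 30.9%.

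High-score intervals, those in the top 10% of the autosomes with a score of at least 1.83 times the lowest, numbered 78 of 784 in the clusters. Their share was 9.95% (exact Clopper-Pearson bounds 7.94 to 12.3), against 10.1% (9.15 to 11.2) in the flanks. By cluster it was 8.40% on chromosome 2 (10 of 119, bounds 4.10 to 14.9), 10.4% on chromosome 7 (54 of 518, 7.93 to 13.4) and 9.52% on chromosome 9 (14 of 147, 5.31 to 15.5). The bounds include 10% in each cluster, and with these counts a moderate difference could not be seen. After intervals within 500 bp were joined, the share in the clusters was 6.86% (4.61 to 9.77), with bounds below the 10% of the autosomes. Per unit length, high-score intervals stood at 1.92 per Mb on chromosome 2, 9.0 on chromosome 7 and 5.19 on chromosome 9, against 19.6 per Mb in the flanks and 14.3 over the autosomes. Relative to the flanks of each cluster they were at 0.0995 (0.0465 to 0.190), 0.353 (0.254 to 0.484) and 0.370 (0.194 to 0.657) times.

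**Figure D4:**
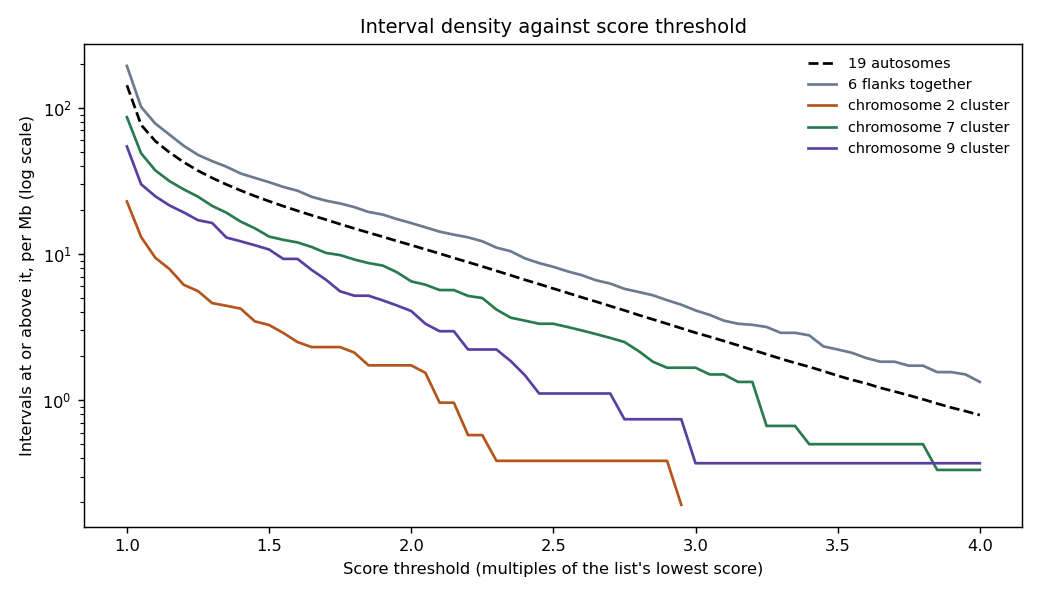
Number of intervals per Mb (log scale) at or above a score threshold, given in multiples of the lowest score of the list, for each cluster, the 6 flanks together and the 19 autosomes. The 3 clusters stay below the flanks and the autosomes at every threshold drawn, and the chromosome 2 curve ends below 3 times the lowest score.

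Strong intervals made up a share of the clusters close to that elsewhere. Scores above 2 times the lowest were found for 59 of 784 members (7.53%), against 8.41% in the flanks and 8.05% over the autosomes. The highest score of the clusters was 0.0646, or 5.02 times the lowest, at chr9:40047305-40048239, an interval of 935 bp. It exceeded 99.8% of autosomal scores and had 22 other members within 10 kb, so it belongs to the dense right end of chromosome 9. The next on that chromosome were chr9:40035679-40036161 (0.0382), chr9:40158275-40158643 (0.0348) and chr9:40013991-40014574 (0.0311), all in the same last 0.2 Mb. The fifth, chr9:38682390-38682808 (0.0304), lay 1183 kb from the nearest bound and had 0 other members within 10 kb.

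The 5 highest scores of the chromosome 7 cluster lay in 5 different places. They were chr7:114380284-114380871 (0.0577, 15 others within 10 kb), chr7:111576518-111576786 (0.0532, 1 other), chr7:109589946-109590484 (0.0495, 8 others), chr7:111392703-111393180 (0.0437, 8 others) and chr7:115339863-115340277 (0.0417, 3 others). The last of these exceeded 98.6% of autosomal scores and the first 99.7%. The widest intervals of that cluster were chr7:111447925-111448900 (976 bp), chr7:114737900-114738728 (829 bp) and chr7:114804739-114805496 (758 bp), and the first was the widest in the 3 clusters.

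On chromosome 2 the strongest intervals were modest. The highest score was 0.0385, or 2.99 times the lowest, at chr2:86207683-86208264, which was also the widest of that cluster at 582 bp and exceeded 98.0% of autosomal scores. A neighbour at chr2:86206488-86207022 was the second widest, at 535 bp, with a score of 0.0231. The next highest scores were chr2:89402946-89403337 (0.0377), chr2:85890963-85891348 (0.0290), chr2:86304814-86305202 (0.0282) and chr2:90076573-90076886 (0.0281). The intervals at chr2:85890963-85891348 and chr2:86304814-86305202 had 0 other members within 10 kb. The third widest was the interval at chr2:89402946-89403337, at 392 bp. On chromosome 9 the next widest, at chr9:40046406-40047200 (795 bp) and chr9:40044988-40045606 (619 bp), lay just before its highest-scoring interval.

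Joining intervals within 500 bp left 408 regions in the clusters, of which 58.1% consisted of 1 interval, against 51.5% of 1661 regions in the flanks and 51.3% over the autosomes. The share was 67.1% on chromosome 2, 55.3% on chromosome 7 and 59.0% on chromosome 9. The density of joined regions was 0.318 times that of the flanks (0.285 to 0.355). Mappability, GC content and DNA copy number of the regions were not measured here, so a missing interval is not a measure of closed chromatin.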

How the data were processed

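FAIRE-seq and input libraries of mESCs gave 1 deposited list of intervals with 5 columns and no header. Per the submitters' processing notes, reads were handled with Bowtie (version not given) on build mm9. Per the deposited list's name, F-Seq made the intervals, each with a score. Its settings, filters, use of the input and any pooling: not given in the sources used here.

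Members were intervals with a midpoint inside the bounds. The clusters, gene lists and tests were chosen with earlier results of these data known. The tools were scipy 1.17.1, numpy 2.4.6, pandas 2.3.3, matplotlib 3.10.9 and Python 3.11.15, and the procedures were tested on simulated data. The simulated intervals were placed at random without clustering, unlike the listed ones, so the bounds were not tested under clustering. Densities have exact Poisson bounds and their ratios exact conditional binomial bounds. Windows (1 Mb) and bins (100 kb) were taken between the first and last interval of each autosome. Named regions followed a rule: per cluster, the 5 highest scores, 3 widest intervals, 3 fullest bins and 3 longest empty stretches. Starts in the list count from 0 and are printed counted from 1. Gene order and promoter windows (first-listed per gene) came from RefSeq tables of GRCm38.p6, matched by symbol, and no position was carried over to mm9. Alternatives were score, width, joining, flank width, edges, bin size and leaving out each cluster.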

Additional observations from a re-analysis of the deposited data

How the results depend on the processing

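No paired analysis was possible because the list ties no interval to a sample, and no replicate could be left out. There were 92 alternative values for 13 results. Of these, 57 stayed within the counting bounds of the reported value (or within 1.5 times, for covered bases and window counts) and 35 moved. A change of direction could be called only for ratios, and not where the reported bounds include 1, as for chromosome 7 against the median window. Among the ratios that could be so called, 0 changed direction. All 33 alternative ratios of cluster to flank density were below 1. For the 3 clusters together, that ratio was 0.317 at or above the median score, 0.318 after joining within 500 bp, 0.225 with flanks of 1 Mb, 0.317 with flanks of 5 Mb, 0.263 with edges moved inward by 0.5 Mb, 0.389 without the cluster of chromosome 2, 0.197 without that of chromosome 7 and 0.267 without that of chromosome 9. For chromosome 2 it was 0.0975 for widths of at least 200 bp, 0.157 after joining, 0.0799 with flanks of 1 Mb and 0.162 with flanks of 5 Mb. For chromosome 7 it was 0.453 with flanks of 1 Mb. For chromosome 9 it was 0.197 with flanks of 1 Mb and 0.126 with edges moved inward. The same inward edges gave 0.554 times the median window for the 3 clusters and 0.211 for chromosome 9, and a width of at least 200 bp gave 0.192 for chromosome 2. Joining gave 0.874 times the median window for chromosome 7, with bounds (0.771 to 0.988) that no longer include 1. Leaving out the last 0.2 Mb of the chromosome 9 cluster, chosen after seeing the data, gave 0.267 of the flanks and 0.561 of the median window for the 3 clusters, and 0.181 and 0.304 for chromosome 9.

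Windows at or under the 10th percentile numbered 4 with a width of at least 200 bp. The high-score share was 6.45% among intervals of at least 200 bp and 6.86% after joining (bounds 4.61 to 9.77, below the 10% of the autosomes). For the top 5% by score it was 3.70% (2.49 to 5.27), to be read against the 5% of autosomal intervals that pass this cut. Empty bins made up 69.1% in the top 10% by score, 58.3% at 200 bp or wider, 42.5% with 50 kb bins and 7.35% with 200 kb bins, which smaller bins or fewer intervals give by construction. The fullest 10% of bins held 53.8% in the top 10% by score, 53.5% at 200 bp or wider, 40.4% after joining, 55.1% with 50 kb bins and 44.0% with 200 kb bins. The stricter score cut and the leaving out of a cluster also move their values by construction. The cause of the remaining moves was not tested. With read depth unknown, weakly open sites may be missing.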
